A study of Mus musculus with 4 samples.

Results

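Accessible chromatin was described around 9 genes of the Wnt signalling pathway in mouse limb buds. They comprised the ligand genes Wnt3, Wnt3a, Wnt5a and Wnt6, the R-spondin gene Rspo2, the nuclear factor genes Lef1 and Tcf7, and the response genes Axin2 and Dkk1. They are 9 of 21536 protein-coding genes with a placed start site. Members were the ATAC-seq peaks that overlapped a window of 100 kb on either side of each gene's transcription start site, which gave 190 of 99356 E10.5 peaks and 66 of 37413 E11.5 peaks. E stands for embryonic day. A peak within 1 kb of the start site is called a promoter peak and any other peak of the window a distal peak.

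The study profiled wild-type embryos by ATAC-seq, in which the Tn5 transposase inserts adaptors where DNA is open, with 2 replicates at each of 2 stages. Fore- and hindlimb cells were dissociated, fixed and processed together, so signal from ectoderm and mesenchyme, or from the 2 kinds of limb, cannot be separated. No treatment or mutant allele entered these 4 samples. The titles give the earlier stage as E10.5 and the protocol as E10, and the titles were followed. Each stage had 1 deposited peak list in which its replicates are joined. Replicate spread and sequencing depth are therefore unknown, and the stages cannot be tested against each other. The E11.5 list was the shorter, and 32.3% of E10.5 peaks overlapped an E11.5 peak while 91.8% of E11.5 peaks overlapped an E10.5 peak. A peak absent from a list is one that was not called there, at an unknown depth. All 9 genes were placed in mm10.

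Wnt proteins are secreted lipid-modified ligands that bind Frizzled receptors together with a co-receptor. In the canonical branch they stabilise beta-catenin, which enters the nucleus and binds TCF and LEF factors at target genes, while Wnt5a acts mainly through a branch that does not need beta-catenin. In the limb bud, Wnt3 and Wnt6 are known as ectodermal ligands, Wnt3 being needed for the apical ectodermal ridge, and Wnt5a as a mesenchymal ligand that directs outgrowth. R-spondins raise the number of Wnt receptors at the cell surface, Axin2 and Dkk1 are targets that feed back as inhibitors, and Lef1 and Tcf7 are the nuclear partners of beta-catenin.

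Promoter sequences are shown for 5 genes: 3 with a promoter peak in the E10.5 list only (Wnt3, Wnt3a and Wnt6), Axin2, whose promoter peak had the best rank of the 9 at E11.5, and Dkk1, the only one of 7 with a searched TCF/LEF core. Each run holds the 250 bases before the start site, 5′ to 3′ on the gene's strand, from RefSeq on GRCm38.p6. Capitals mark CTTTGAT and CTTTGAA (cores bound by TCF and LEF factors), TATAAA and GGGCGG, on either strand, where matches may overlap.
Wnt3 (chr11:103773925-103774174, plus strand): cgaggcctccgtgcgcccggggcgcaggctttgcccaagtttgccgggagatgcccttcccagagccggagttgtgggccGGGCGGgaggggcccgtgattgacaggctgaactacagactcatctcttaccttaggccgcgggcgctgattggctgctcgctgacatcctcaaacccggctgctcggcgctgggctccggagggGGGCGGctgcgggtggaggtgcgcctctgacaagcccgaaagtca
Wnt3a (chr11:59290752-59291001, minus strand): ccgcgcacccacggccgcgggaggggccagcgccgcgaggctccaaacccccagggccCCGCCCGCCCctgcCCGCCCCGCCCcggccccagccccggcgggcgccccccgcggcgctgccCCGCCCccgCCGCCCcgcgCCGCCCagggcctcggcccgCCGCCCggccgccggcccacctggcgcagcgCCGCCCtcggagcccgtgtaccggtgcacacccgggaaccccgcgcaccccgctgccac
Wnt6 (chr1:74771642-74771891, plus strand): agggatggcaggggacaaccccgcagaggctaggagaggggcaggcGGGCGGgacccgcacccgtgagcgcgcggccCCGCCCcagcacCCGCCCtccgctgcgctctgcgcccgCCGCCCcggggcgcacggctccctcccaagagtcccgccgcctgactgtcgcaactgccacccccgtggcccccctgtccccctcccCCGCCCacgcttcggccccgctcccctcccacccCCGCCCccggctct
Axin2 (chr11:108920099-108920348, plus strand): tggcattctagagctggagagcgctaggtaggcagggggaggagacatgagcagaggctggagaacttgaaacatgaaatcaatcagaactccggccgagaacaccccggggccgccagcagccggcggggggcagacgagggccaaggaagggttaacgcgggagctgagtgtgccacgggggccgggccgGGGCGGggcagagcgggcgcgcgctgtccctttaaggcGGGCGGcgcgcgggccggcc
Dkk1 (chr19:30549497-30549746, minus strand): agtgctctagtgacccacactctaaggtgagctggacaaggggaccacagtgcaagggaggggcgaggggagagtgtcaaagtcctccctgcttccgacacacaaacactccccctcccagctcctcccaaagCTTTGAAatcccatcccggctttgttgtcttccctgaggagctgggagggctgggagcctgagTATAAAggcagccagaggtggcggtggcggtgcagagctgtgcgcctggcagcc

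The upstream bases of Wnt3, Wnt6, Axin2 and Dkk1 lay wholly in an E10.5 peak, 250 of 250 in each. For Wnt3a, 148 of 250 bases did. At E11.5 the printed bases of Axin2 and Dkk1 again lay wholly in peaks, and 0 bases of Wnt3, Wnt3a and Wnt6 did. Of the 9 genes 7 were in the sequence table, and Wnt5a and Rspo2 were not matched. The table gives 11 starts for the 7 genes, 4 of them for Lef1 and 2 for Tcf7, and the counts that follow take the most upstream of each gene. GGGCGG was found in 6 of 7, against 32.7% of 32851 promoters of the same length. The exception was Dkk1, which held CTTTGAA at position -117 and TATAAA at -54, counted from the start site. CTTTGAT was found in 0 of 7 (3.21% of all promoters), CTTTGAA in 1 of 7 (4.46%) and TATAAA in 1 of 7 (12.4%). Over all 11 starts TATAAA was found at 3, in 3 of the 7 genes, the others being the Lef1 start at 131156294 and the Tcf7 start at 52282595. GGGCGG was then at 9 of 11, CTTTGAA at 1 and CTTTGAT at 0. The share of C and G bases ran from 60.8% in Dkk1 to 87.6% in Wnt3a, with a median of 69.2%, at the 7 most upstream starts. Over the 11 starts it ran from 44.8%, at the Lef1 start named above, and had a median of 66.4%. The median was 52.4% over all promoters and 60% over the 17068 which overlapped an E10.5 peak. Motif shares were not computed for those 17068, so the GGGCGG count was not compared at a like share of C and G bases. A match is a match of letters only, and a window without one says nothing of the factor.

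All 9 genes had a promoter peak in the E10.5 list, and 6 in the E11.5 list. Over all protein-coding genes these shares were 67.6% and 61.6%. The 3 genes with a promoter peak in the E10.5 list only were Wnt3, Wnt3a and Wnt6, all of them ligand genes, and 6.41% of all protein-coding genes had this pattern. None of the 9 had a promoter peak in the E11.5 list only (0.404% of all). With a −log10 p of at least 5 only Wnt6 had this pattern, since the E10.5 peaks of Wnt3 and Wnt3a fell below that limit. With promoters taken to 2 kb only Wnt3 and Wnt3a had it. With starts at the outer ends of the RefSeq genes the 3 were Wnt3, Wnt3a and Axin2. Those ends lie upstream of the start used by 17550 bp at Wnt6, 2521 bp at Axin2 and 369 bp at Tcf7. Of the 11 promoter peaks at E10.5, 7 overlapped an E11.5 peak, and all 8 at E11.5 overlapped an E10.5 peak. The background shares were 86.5% and 98.8% of promoter peaks of protein-coding genes. The E10.5 promoter peaks without overlap were that of Wnt3 and 3 small ones of Wnt3a. Those 3 stood in the lower 50% of the list, where 24.2% of all E10.5 promoter peaks overlapped. Fewer cells of a type and less open chromatin per cell cannot be told apart in such bulk libraries.

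**Figure D1:**
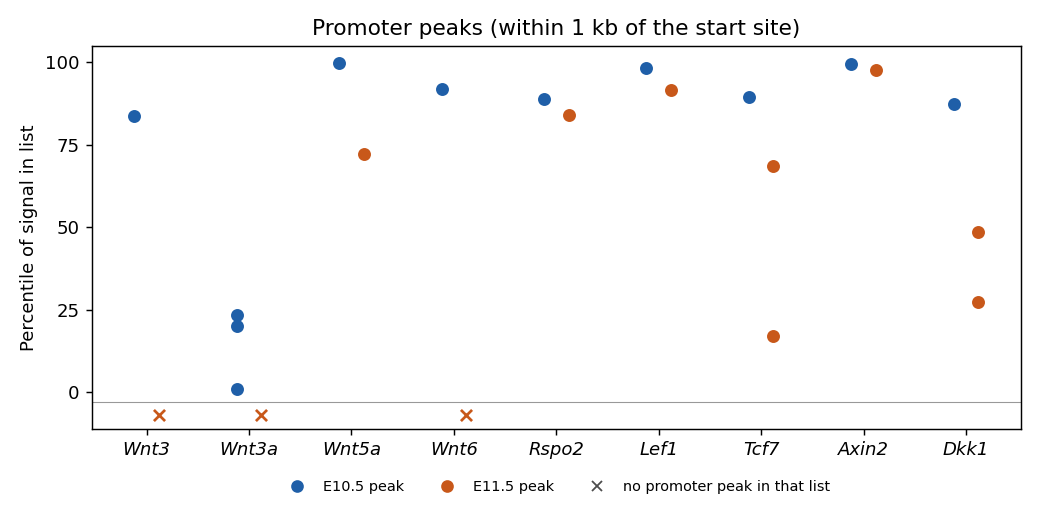
Promoter peaks of the 9 genes. The vertical axis is the percentile of the authors' signal value among all peaks of the same list (blue E10.5, orange E11.5), each point is 1 peak, and a cross marks a gene with no promoter peak in that list. Crosses stand at Wnt3, Wnt3a and Wnt6 for E11.5 only; percentiles of the 2 lists are not comparable as amounts, because the lists differ in length.

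Among the ligand genes, Wnt3 (chromosome 11, 103774175 to 103818021, plus strand) had 1 E10.5 promoter peak at chr11:103771141-103774614. Its signal was 3407, rank 16118 of the list, and its −log10 p 4.84. The signal value is the authors' total over a peak and grows with width. Signals, also per bp, are comparable only within a list, so pairs of values across the lists do not measure a change. Ranked by signal per bp instead, this peak of 3474 bp stood in the top 76.0% of the list and not in the top 16.2%. Of all E10.5 promoter peaks between the top 10% and the median of the list, 681 of 6578 had no E11.5 overlap, as this one. The window held 23 distal peaks at E10.5, of which 4 overlapped an E11.5 peak, and 4 at E11.5, all overlapping. The leading distal peak in both lists was the promoter of the neighbour Gosr2, 76.5 kb upstream (signal 4075 in the E10.5 list and 2782 in the E11.5 list). A peak inside Wnt3 at chr11:103808750-103811408, 36.4 kb downstream of the start, had a signal of 3961 at E10.5, and its E11.5 counterpart a signal of 315. The third E10.5 peak, 24.3 kb upstream with a signal of 2225, lay at the promoter of Wnt9b, another ligand gene, and was called at E11.5 with 518. The window thus held an E11.5 peak at the Wnt9b promoter and none at that of Wnt3. The remaining E11.5 peak, 67.0 kb downstream in Nsf, had a signal of 322.

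Wnt3a (chromosome 11, 59248036 to 59290751, minus strand) encodes a canonical ligand. Its promoter carried 3 small E10.5 peaks with signals of 380, 345 and 206 (ranks 76020, 79411 and 98219). The lowest of them lay close to the smallest value of the list, 200. None overlapped an E11.5 peak. Wnt3a had the most distal peaks of the 9 genes, with 29 in the E10.5 list and 11 in the E11.5 list, in a window with 6 other protein-coding start sites. The strongest E10.5 distal peak was that of the neighbouring ligand gene Wnt9a, 18.5 kb upstream at chr11:59304792-59310209, with a signal of 15658 and rank 387. At E11.5 this broad interval held 3 separate peaks with signals of 925, 648 and 443. The next E10.5 peaks lay at the promoters of 2310033P09Rik (5870) and Guk1 (5159), and these 2 with the Arf1 promoter led the E11.5 list with 2765, 2785 and 2177. Inside Wnt3a the E11.5 list held 1 peak that overlapped E10.5, 26.7 kb downstream with a signal of 302. The other, at chr11:59261159-59261388, did not overlap, and its signal of 201 was near the list's minimum.

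Wnt6 (chromosome 1, 74754342 to 74785322, plus strand) had a clear E10.5 promoter peak at chr1:74770482-74773572, with a signal of 5631, rank 8038 and a −log10 p of 11.2. That peak did overlap an E11.5 peak, at chr1:74773126-74773412 with a signal of 743. The overlap was 287 bp, or 9.29% of the E10.5 peak, and it lay over 1 kb downstream of the start. So the E11.5 list kept the downstream edge of the interval and none of the bases around the start site. The window held 22 distal E10.5 peaks, 9 distal E11.5 peaks and 4 other start sites, including that of the ligand gene Wnt10a. The strongest E10.5 distal peak, at chr1:74805310-74808781 with a signal of 7789, lay between protein-coding genes 36.5 kb downstream, nearer to Wnt10a than to Wnt6. It held 2 E11.5 peaks, with signals of 1123 and 207. The next E10.5 peaks were at the promoters of Cyp27a1 (5819) and Cdk5r2 (4648), which led the E11.5 peaks with 1360 and 1325. A peak at 31.3 kb downstream, in Wnt10a, followed with 1132 at E11.5.

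Of these 4 ligand genes, Wnt5a (chromosome 14, 28504543 to 28527448, plus strand) alone had a promoter peak in both lists. Its E10.5 promoter peak at chr14:28502268-28511900 was 9633 bp wide, with a signal of 28124 and rank 36 of 99356. Ranked by signal per bp it stood in the top 13.9% of the list, and by −log10 p in the top 13.1%. At E11.5 the same interval held 4 separate peaks that covered 51.1% of it. The one at the promoter, chr14:28504423-28506172, had a signal of 1978 and rank 10439, and the others, inside the gene, had 1319, 605 and 589. Per bp the signal was 2.92 in the E10.5 peak and 1.13 in the E11.5 promoter peak, values not comparable between lists. Within its own list the E11.5 promoter peak stood in the top 69.6% per bp and the top 51.9% by −log10 p. No other protein-coding start site lay in the window, so all 27 distal E10.5 peaks and all 7 distal E11.5 peaks had Wnt5a as their nearest start. Of the E10.5 peaks 21 lay upstream, and 4 of the 27 overlapped an E11.5 peak. The strongest stood 37.7 kb downstream at chr14:28541811-28542807, with a signal of 5044 in the earlier list and 884 in the later. The second, 3.09 kb upstream, had 4205 at E10.5 and an E11.5 counterpart of 217. The third, 38.4 kb upstream within Erc2 with a signal of 3396, had no E11.5 overlap.

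**Figure D2:**
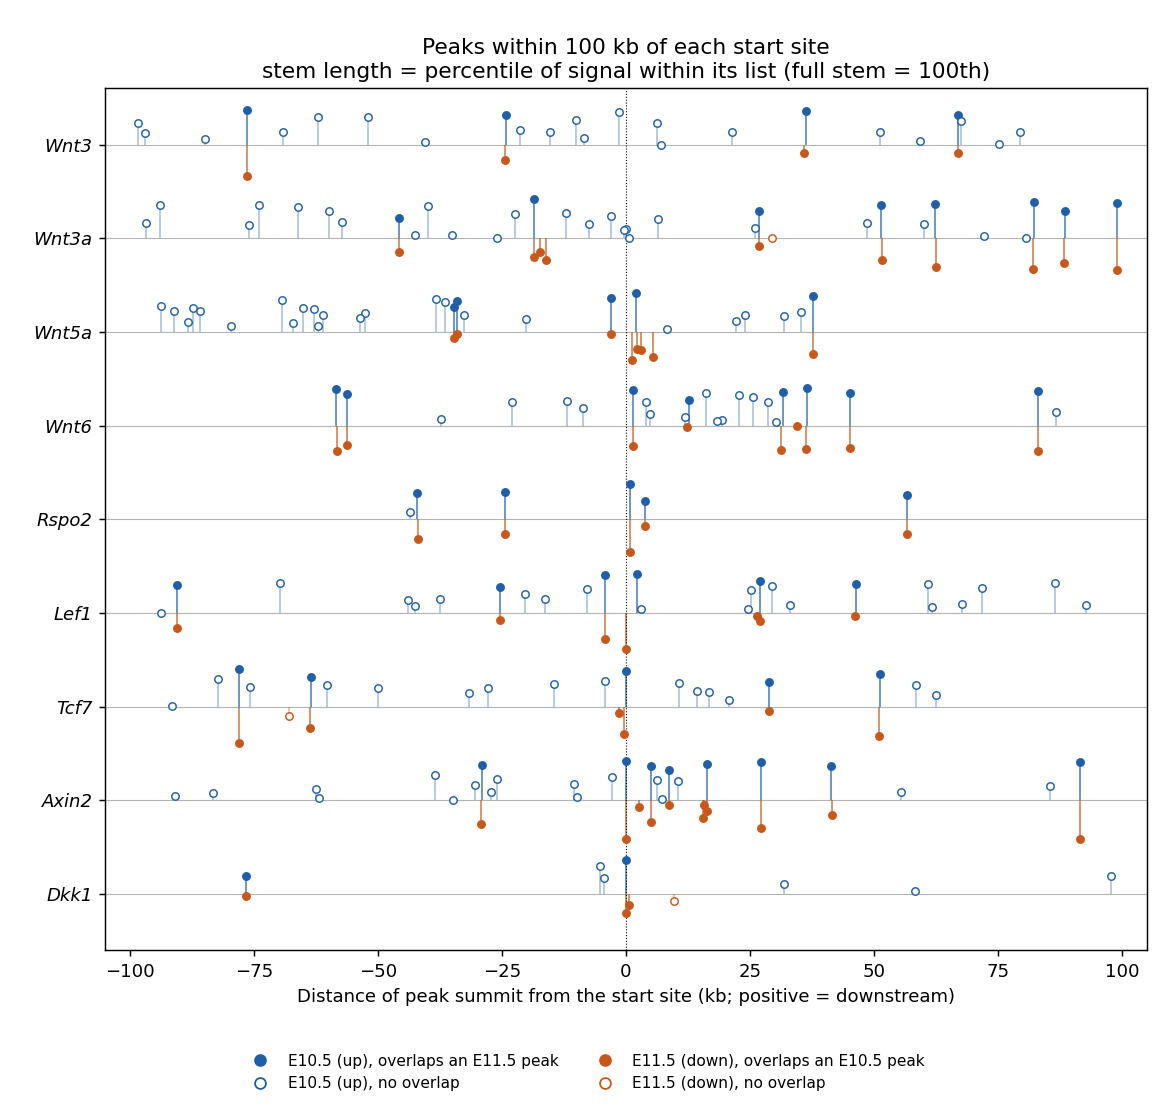
All peaks in the windows of the 9 genes, by distance of the summit from the start site in kb along the gene's direction. Stems point up for E10.5 and down for E11.5, their length is the percentile of signal within the list, and filled circles overlap a peak of the other list. Open E10.5 circles lie throughout most windows, while open E11.5 circles number 3, at Wnt3a, Tcf7 and Dkk1.

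Rspo2 (chromosome 15, 43020788 to 43171594, minus strand), which encodes a secreted amplifier of Wnt signalling, had a promoter peak in each list. Its distal peaks numbered 5 in the earlier list and 4 in the later. The E10.5 promoter peak at chr15:43169687-43171193 had a signal of 4633 and rank 10909. The E11.5 one at chr15:43169469-43171119 had a signal of 3430 and rank 5913, and 95.1% of the E10.5 peak was covered. Both summits lay 725 bp downstream of the start site used, which is the outer end of the RefSeq gene. The window was sparse: 4 of its 5 distal E10.5 peaks overlapped an E11.5 peak, as did all 4 distal E11.5 peaks the other way. Of all protein-coding genes 27.9% had fewer distal E10.5 peaks. The 3 strongest at E10.5 stood 24.4 kb upstream (1687), 42.1 kb upstream (1580) and 56.8 kb downstream (1220). The same 3 led at E11.5 with 490, 751 and 458, so the order of the first pair differed between lists. In bases, 72.5% of the E10.5 peak length in this window was also in E11.5 peaks, the highest share of the 9 genes. The other genes ran from 15.4% at Wnt3 to 32.8% at Axin2.

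Dkk1 (chromosome 19, 30545876 to 30549496, minus strand) encodes a secreted inhibitor that binds the Wnt co-receptor. Its E10.5 promoter peak at chr19:30548287-30550065 had a signal of 4183 and rank 12642. At E11.5 the interval held 2 peaks, chr19:30549149-30549803 with a signal of 684 (rank 19255) and chr19:30548639-30549014 with 367 (rank 27121), together covering 58.0% of it. The neighbourhood was the emptiest at E11.5, with 2 distal peaks, and held 6 at E10.5. The strongest E10.5 one, 5.25 kb upstream at chr19:30554287-30554836 with a signal of 1775, had no E11.5 overlap. A peak in Prkg1, 76.7 kb upstream, was the only distal one in both lists (738 and 222). An E10.5 peak 97.8 kb downstream (733) had no overlap. The E11.5 list alone held a peak 9.74 kb downstream at chr19:30539334-30539814 with a signal of 286.

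Of the nuclear factor genes, Lef1 (chromosome 3, 131110297 to 131224357, plus strand) had a broad promoter peak in both lists. At E10.5 it lay at chr3:131109098-131112849 with a signal of 10444 and rank 1654, and at E11.5 at chr3:131109319-131112800 with 4767 and rank 3172. The summit was 2155 bp downstream of the start at E10.5 and 45 bp upstream at E11.5. Directly upstream, at 4.28 kb, stood the strongest distal peak, chr3:131105487-131108500, with a signal of 7702, and its E11.5 counterpart had 1529. A peak 26.9 kb downstream in the gene followed at E10.5 with 3190, and 2 E11.5 peaks of 315 and 235 lay within it. The third, 69.9 kb upstream (2268), had no E11.5 overlap, while a peak 90.6 kb upstream was the second strongest at E11.5 (480). RefSeq lists a further Lef1 start at position 131156294, well inside the gene. It lay in an E10.5 peak at chr3:131155605-131156874 with a signal of 1970. The E11.5 peak there, chr3:131156495-131156866 with a signal of 228, began downstream of that start. The window had no other protein-coding start, 24 distal E10.5 peaks, of which 5 overlapped, and 6 at E11.5, all overlapping.

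Tcf7 (chromosome 11, 52246527 to 52283383, minus strand) had a promoter peak of 2475 bp at E10.5, chr11:52282072-52284546, with a signal of 4823 and rank 10283. Within it the E11.5 list had chr11:52282571-52283550 with 1672 (rank 11739), and chr11:52284010-52284581 with 285 reached past its upstream end. The strongest distal peaks in both lists were at the promoters of the neighbours Vdac1, 78.1 kb upstream (8592 and 4804), and Skp1, 51.3 kb downstream (3317 and 2255). A peak 63.5 kb upstream, between genes, followed with 2104 and 887. Of 19 distal E10.5 peaks, 8 had Tcf7 as their nearest start, and of 5 at E11.5 none did. The Tcf7 window also held 1 peak in the E11.5 list only, at chr11:52350927-52351190 with a signal of 326.

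Axin2 (chromosome 11, 108917828 to 108950783, plus strand), a widely used readout of canonical signalling, had the highest promoter signal of the 9 genes at E11.5 and the second highest at E10.5. The E10.5 peak at chr11:108919874-108924252 had a signal of 14497, rank 496 and a −log10 p of 12.6. The E11.5 peak at chr11:108919886-108922859 had a signal of 7272, rank 890 and a −log10 p of 10.2. The summits were 19 and 16 bp downstream of the start site. No other protein-coding start lay within 100 kb. All 10 distal E11.5 peaks overlapped an E10.5 peak, and 9 of the 10 lay downstream of the start. Inside the gene, a peak 27.2 kb downstream had 9230 in the earlier list and 1850 in the later. Another 16.3 kb downstream (5862) held 3 E11.5 peaks of 613, 361 and 256. The third E11.5 distal peak, 29.2 kb upstream, had 1042.

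A single narrow peak 91.5 kb downstream of Axin2, in the RefSeq non-coding gene Gm36876, was the most concentrated of all peaks in the windows. It lay at chr11:109011593-109012167 in the E10.5 list and at chr11:109011595-109012169 in the E11.5 list, 575 bp wide in each and with the summit at the same base, 109011855. Its signals were 9037 (E10.5) and 7354 (E11.5), the latter above that of the Axin2 promoter. Per bp it had 15.7 and 12.8, ranks 16 and 32 of all peaks. Its −log10 p was 21.7 and 18.8, ranks 28 and 39.

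Together the 9 windows held 179 distal E10.5 peaks and 58 distal E11.5 peaks. The median per gene was 23 at E10.5, from 5 at Rspo2 to 29 at Wnt3a, and 6 at E11.5, from 2 at Dkk1 to 11 at Wnt3a. Over all protein-coding genes the medians were 9 and 4, and over genes with a promoter peak in the same list 12 and 5. Rspo2 and Dkk1 were thus below the E10.5 median of all genes and the other 7 above it. Another gene's promoter accounted for 13 distal E10.5 peaks and 12 distal E11.5 peaks. Distal peaks whose nearest protein-coding start was the member itself numbered 112 and 34.

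**Figure D3:**
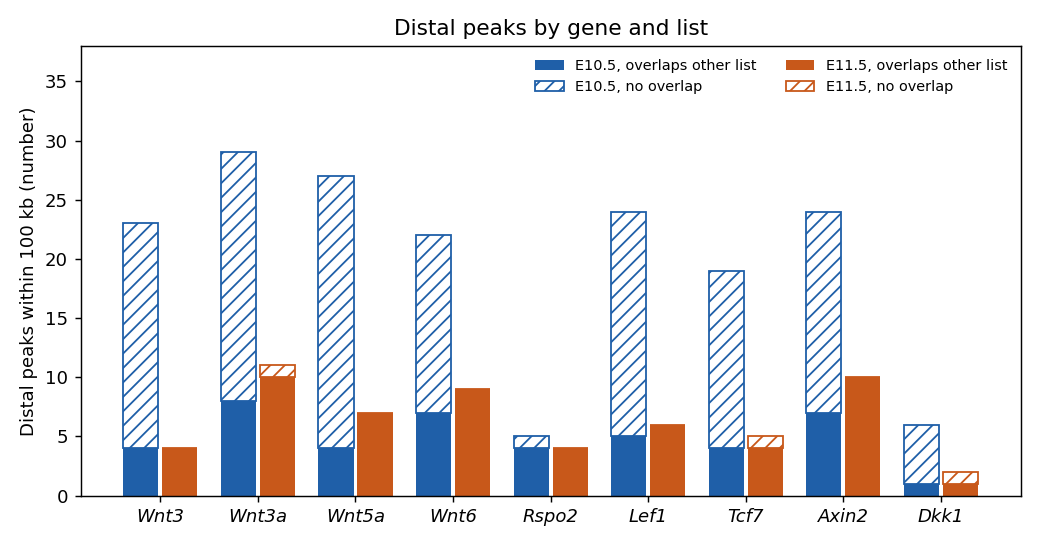
Number of distal peaks within 100 kb of each start site, by gene, with E10.5 in blue and E11.5 in orange. Solid parts overlap a peak of the other list and hatched parts do not; the hatched part is the larger one at E10.5 in every gene except Rspo2.

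Of the 179 distal E10.5 peaks, 44 overlapped an E11.5 peak, which is 24.6% (95% Wilson interval 18.9 to 31.4%). This share depended on the list length and the overlap rule. It was 61.5% with the E10.5 list reduced by signal to the length of the E11.5 list, 59.1% when reduced by −log10 p, and 12.3% with a reciprocal overlap of 50%. Of the 58 at E11.5, 55 overlapped an E10.5 peak, which is 94.8% (85.9 to 98.2%). Intervals cover counting error only and treat neighbouring peaks as independent. For a like comparison, peaks at any other start site were left out. The shares then were 19.9% (14.5 to 26.6%) of 166 and 93.5% (82.5 to 97.8%) of 46. Over all distal peaks within 100 kb of protein-coding genes they were 23.6% and 87.3%, inside both intervals, with the whole lists and an overlap of 1 bp. A difference from other genes was not tested, since peaks of 1 window are not independent and each stage has 1 list. The other settings were not compared with all genes.

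Sharing went with signal, as it did across the lists. All 11 distal E10.5 peaks in the top 10% of the list overlapped an E11.5 peak (91.5% for all genes), as did 31 of 81 between there and the list's median, that is 38.3% (39.2% for all genes). Of 87 in the lower part of the list, 2 did, which is 2.30% (6.79%). These counts include the 13 distal E10.5 peaks at another gene's promoter. The shares for all genes leave out peaks at any start site, so the sets compared are not alike. Shared E10.5 distal peaks had a median width of 1208 bp and the others 547 bp. By distance from the start, 5 of 24 (20.8%) overlapped within 10 kb, 22 of 79 (27.8%) between 10 and 50 kb, and 17 of 76 (22.4%) beyond. Over all genes the share was 23.6% at any distance within the window, without peaks at any start site, and it was not computed by distance. The counts by distance include the peaks at other promoters. Without those the share in the 9 windows was 19.9%. In bases, peaks of the 9 windows covered 179 kb in the E10.5 list and 47.8 kb in the E11.5 list. The mean signal per bp was 2.06 and 1.60, which are not comparable between lists.

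Beyond these genes, 79 further genes of the pathway were listed by role. A promoter peak was found for 76 of them (96.2%) in the earlier list and 63 (79.7%) in the later one. For 13 (16.5%) it was in the E10.5 list alone, and 3 had one in neither list. Over all protein-coding genes these shares were 67.6% in the earlier list, 61.6% in the later and 6.41% in the E10.5 list alone. All 15 receptor and co-receptor genes had one in both lists, among them Fzd7 (signal 20807 in the E10.5 list and 6470 in the E11.5 list, and pairs below in that order), Fzd1 (14197 and 7598) and the co-receptor gene Lrp6 (5529 and 5098). All 8 nuclear factor genes did as well, including Tcf7l1 (13244 and 5638) and Tcf7l2 (8168 and 2309). Of 10 transduction genes 9 did, Ctnnb1, which encodes beta-catenin, with 5018 and 3266. Axin1 had no peak at the start site used. Both secretion genes had one in each list.

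Ligand genes made up most of the E10.5-only cases. Of 15 further ligand genes, 14 had a promoter peak in the earlier list and 7 in the later. The 7 in the E10.5 list only were Wnt1, Wnt7a, Wnt7b, Wnt8a, Wnt10a, Wnt10b and Wnt11, and Wnt8b had none. With the 4 ligand genes above, 18 of 19 had a promoter peak at E10.5, 8 of 19 at E11.5, and 10 of 19 (52.6%) at E10.5 only, against 6.41% of all protein-coding genes. All protein-coding genes include those without an E10.5 promoter peak, which cannot have this pattern. Of the 14564 with one, 1381 had it. The pattern was not particular to ligand genes. It was found for 28.1% of the 57 cell type markers below, from 0% of 6 blood markers to 50% of 6 muscle precursor markers. Some E10.5 promoter peaks of the 10 ligand genes were weak, such as Wnt8a (245) and Wnt10a (289). Wnt11 had 21245 (top 0.116% of the list) and Wnt7b 6675 (top 5.72%). Wnt10b had 3504 (top 15.7%) and Wnt7a, the dorsal ectodermal ligand of the limb, 3300 (top 16.8%). Both were below the median gene with an E10.5 promoter peak, whose strongest one stood at percentile 89.4 of the list. The Wnt11, Wnt7b and Wnt6 peaks overlapped an E11.5 peak that lay over 1 kb from the start site, and those of the other 7 did not. Ligand genes with a promoter peak in both lists included Wnt5b (7759 and 2242), Wnt4 (5950 and 720) and Wnt16 (4682 and 2552).

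That count of ligand genes depended on the rule. It was 9 of 19 within 500 bp, 8 within 2 kb and 6 at a −log10 p of at least 5, where all protein-coding genes gave 5.97%, 7.16% and 8.23%. With E10.5 peaks limited to as many as E11.5 held, it was 6 by signal and 5 by −log10 p, against 2.17% and 1.56%. The share of ligand genes stood above that of all genes under each of these settings. No test was made, since the list was chosen with earlier results of these data known and each stage has 1 list.

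**Figure D4:**
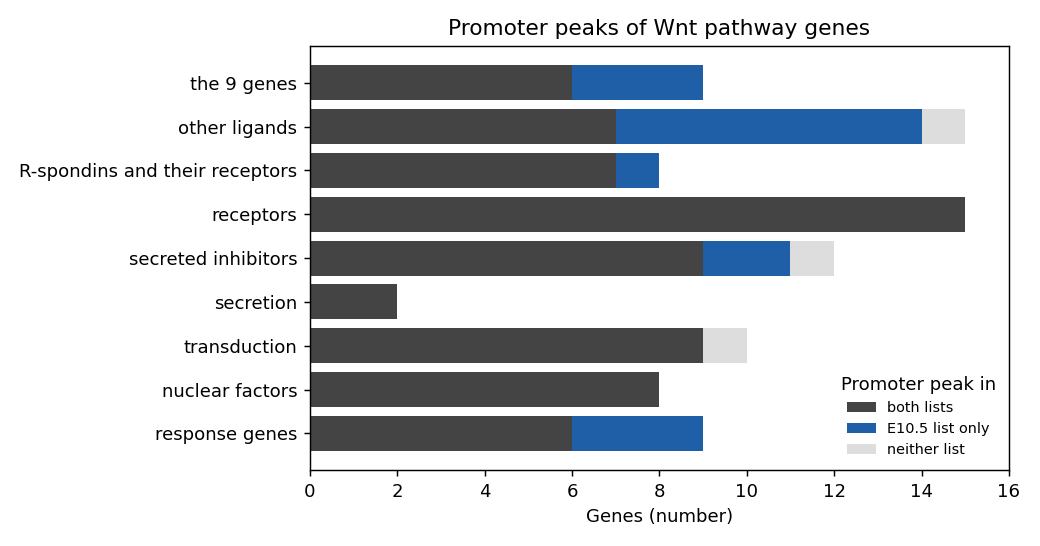
Number of genes with a promoter peak in both lists (dark), in the E10.5 list only (blue) or in neither (light), for the 9 genes and for 79 further Wnt pathway genes by role. Blue parts are largest among the other ligands (7 of 15) and absent among receptors, secretion, transduction and nuclear factor genes.

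Apart from ligand genes, 6 of the 64 listed pathway genes (9.38%) had a promoter peak in the E10.5 list only, against 6.41% of all protein-coding genes. They were R-spondin, inhibitor and response genes. Of 8 R-spondin and receptor genes, Rspo1 alone was in the E10.5 list only (880), and Lgr4, a receptor for R-spondins, had 11201 and 10130. Among 12 secreted inhibitors, Sfrp5 (2040) and Kremen2 (3096) were in the E10.5 list only, and Dkk4 in neither. Dkk2 had 13304 and 5151, and Sfrp2 15623 and 3508. Of 9 response genes 3 (33.3%) were in the E10.5 list only, namely Nkd1 (3825), T (569) and Cdx1 (1029). Myc, a growth regulator, had 22454 and 13415, Ccnd1, a cyclin gene, 22742 and 2599, and Sp5 1690 and 964.

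Of 57 cell type markers, 44 had a promoter peak in the earlier list and 30 in the later (77.2% and 52.6%, against 67.6% and 61.6% of all protein-coding genes). The E10.5 list alone held 16 of them (28.1%, against 6.41%) and the E11.5 list alone 2 (3.51%, against 0.404%). The number fell from the earlier list to the later over all genes too, but by less than among the markers. Of 12 limb mesenchyme markers all 12 had a promoter peak at E10.5 and 9 at E11.5, with Tbx5, Tbx4 and Pitx1 in the E10.5 list only. Ectoderm markers with a peak numbered 10 of 12 at E10.5 and 6 of 12 at E11.5. Krt5, Krt14, Grhl2 and Fgf8 were in the E10.5 list only, and Sp6 and Trp63 had none at the start site used. Muscle precursor markers gave 6 and 3 of 6 (Pax3, Pax7 and Myf5 in the E10.5 list only), endothelial markers 4 and 2 of 6 (Cdh5 and Tie1), and nerve and glia markers 5 and 4 of 6 (Sox10). Blood markers went the other way, with 2 of 6 at E10.5 and 4 of 6 at E11.5, Gata1 and Hbb-bs being in the E11.5 list only. Markers of other organs gave 5 and 2 of 9, with Nkx2-5, Cdx1 and Myh6 in the E10.5 list only. The part of cell composition, depth or calling in the ligand promoters was not tested, and these cannot be told apart from stage with 1 list per stage.

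Members near the limits of the rule were few. Peaks that reached to within 2 kb of a start site, but not 1 kb, were the E10.5 peak of 7702 at Lef1 and the E11.5 peaks of 589 at Wnt5a and 743 at Wnt6. The summits at Lef1 and Wnt5a lay farther out, 4.28 kb upstream and 2.28 kb downstream. A further 26 E10.5 peaks and 7 E11.5 peaks overlapped the stretches between 100 and 120 kb from the start sites.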

How the data were processed

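ATAC-seq was done on limb cells of wild-type mouse embryos, 2 replicates per stage (E10.5 and E11.5), grouped by sample title. The authors deposited 1 narrowPeak list per stage on mm10, per the file headers. The submitters' processing notes name cutadapt, Bowtie2, SAMtools, deepTools and Genrich, without versions or order. The deposited signal value is a total over the peak. In the output format of Genrich it is an area under the significance curve, and signal per bp never exceeded −log10 p in either list. The deposited −log10 p is the peak's own. The deposited score, which is signal per bp times 1000 with a cap of 1000 (within 1 unit in 100% of peaks), and the q-value column, -1 in 100% of peaks, were not used. Depth is unknown.

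Peaks on chromosomes 1 to 19, X and Y were ranked by signal within their list. Start sites were the most upstream entry of a RefSeq promoter table on GRCm38.p6 (17492 genes), which can lie inside the RefSeq gene as at Wnt6, Axin2 and Tcf7, or, for 4044 genes including Wnt5a and Rspo2, the outer gene end by the strand of GENCODE M1, whose coordinates were not used. Exons and introns in mm10 were not used, so peaks are placed in genes or between them. Overlap means at least 1 bp. Python 3.11.15, pandas 2.3.3, numpy 2.4.6 and scipy 1.17.1 were used, and the overlap code was tested on simulated data. Members, lists and rules were chosen with earlier results of these data known. The text names every promoter peak, the 3 distal peaks of highest signal per gene and list (with further peaks chosen after their values were seen), E11.5-only peaks, list genes with a promoter peak in 1 list only, and examples by role. A gene of the list for other organs is not reported here and is left out of its counts. Alternatives changed the promoter distance, window, threshold, list length, overlap rule, nearest gene and start site.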

Additional observations from a re-analysis of the deposited data

How the results depend on the processing

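No paired analysis was possible because the deposited lists hold no separate replicates, and none could therefore be dropped. Over 7 results and 10 alternative settings, 34 values stayed within 1.5 times the reported count or inside its 95% interval, and 16 moved. The start site setting and the alternatives for E10.5-only promoters were chosen after seeing the data. With a −log10 p of at least 5 there were 103 distal E10.5 peaks and 23 distal E11.5 peaks, 100% of the latter overlapping, and 1 gene (Wnt6) with a promoter peak at E10.5 only. Reducing the E10.5 list to the E11.5 length left 65 distal E10.5 peaks by signal and 66 by −log10 p, with 61.5% and 59.1% overlapping, and the E10.5-only promoters were then 2 (Wnt3 and Wnt6) and 1 (Wnt6). A reciprocal overlap of 50% gave 12.3% of E10.5 and 37.9% of E11.5 distal peaks, and summits within 100 bp gave 17.9% and 56.9%. A window of 50 kb held 104 distal peaks of the E10.5 list. Peaks nearest to the member numbered 112 and 34. These settings kept only the stronger peaks, tightened the overlap rule, narrowed the window or left out peaks nearer to another start. With starts at the outer gene ends, the E10.5-only genes were Wnt3, Wnt3a and Axin2. Of 144 ranks of 72 named peaks by signal per bp or −log10 p, 127 stayed on the same side of their list's median and 17 did not.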
